A study of Mus musculus with 10 samples.

Results

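Interleukin signaling in the mouse mammary gland was examined through 84 genes, which are all the protein-coding genes of the count tables whose mouse symbol is Il followed by a digit, out of 55487 genes counted. The 84 genes carry 82 symbols, because *Il11ra2* has 3 gene models. By role they are 37 ligands, 40 receptor chains, 6 antagonists (the receptor blockers *Il1rn* and *Il1f5*, the soluble trap *Il18bp* and the decoy receptors *Il1r2*, *Il13ra2* and *Il22ra2*) and *Il4i1*, a secreted amino acid oxidase that is named for its induction by IL-4. Gene expression was measured by RNA sequencing in 10 libraries of cells from 10-wk-old female BALB/c mice in diestrus, the progesterone-high stage of the reproductive cycle in which alveolar buds form. All animals had floxed *Cebpb* alleles (*Cebpb* fl/fl). *Csf1r-iCre* was present in the animals named CebpbΔM, which the labels call C/EBPb knockdown, and absent in the WT controls, so that *Cebpb* was to be deleted in cells that express the macrophage receptor CSF1R. Mammary epithelial cells (MECs) were purified by removing cells with markers of other lineages, and gave libraries WT 1 and 3 and CebpbΔM 1 and 3. Macrophages were enriched by positive selection for the surface antigen that *Adgre1* encodes, and gave libraries WT 4 and 5 and CebpbΔM 4 to 7. Whether a library holds cells of 1 animal or of several is not given in the sources used here, so *P*-values measure the spread between libraries. The MECs of CebpbΔM mice were by design not the target of the Cre.

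Interleukins are secreted messengers that cells of a tissue use to address each other. Most act through a receptor that is assembled from a chain that recognises the ligand and a signaling chain shared within a family, such as gp130 (*Il6st*) for the IL-6 group, the common gamma chain (*Il2rg*) for IL-2, IL-4, IL-7 and IL-15, *Il10rb* for the IL-10 group, *Il1rap* for IL-1 and IL-33, and *Il17ra* for the IL-17 group. Most of them, apart from the IL-1 and IL-17 groups, signal through Janus kinases and STAT factors, and macrophages are both a classical source and a classical target of them. C/EBPβ is the factor first known as the nuclear factor of IL-6 expression, and it takes part in the induction of *Il6* and *Il1b* in activated macrophages.

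MEC libraries held 25310926 to 27008166 counts each and macrophage libraries 16935000 to 20174722. At these depths 3 counts, taken as the smallest level that can be shown, equal 0.111 to 0.119 CPM (counts scaled to the same library size) in MECs and 0.149 to 0.177 CPM in macrophages, and this limit covers counting error only. The summed level of 8 macrophage markers, among them *Adgre1* and *Csf1r*, was 28.4 to 41.6 CPM in MECs and 3323 to 7781 CPM in macrophages. The summed level of 8 epithelial markers, among them *Epcam* and *Krt8*, was 28703 to 36533 CPM in MECs but also 5136 to 9263 CPM in the macrophage libraries, and 6 fibroblast markers summed to 5269 to 6432 CPM in MECs and 3244 to 7599 CPM in macrophages. Markers of other cell types were thus present in both preparations, their part in the levels of single genes was not tested, and in such bulk libraries fewer cells of a type and less RNA per cell cannot be told apart. Endothelial markers summed to 82.1 to 120 CPM in MECs and 841 to 1903 CPM in macrophages, adipocyte markers to 30.7 to 33.4 and 405 to 1109 CPM, neutrophil markers to 0.528 to 0.930 and 24.5 to 43.0 CPM, natural killer cell markers to 0.0406 to 0.445 and 6.73 to 9.94 CPM and eosinophil markers to 0.0812 to 0.233 and 2.51 to 12.2 CPM. Mast cell and basophil markers summed to at most 0.487 CPM in MECs and to 37.3 to 82.1 CPM in macrophages. Of these lists *Ly6g* of neutrophils and *Mcpt8* of basophils were at 0 in all 10 libraries, whereas in macrophages *Csf3r* of neutrophils had 17.2 to 41.0 CPM and the mast cell genes *Cpa3* and *Tpsb2* had 5.43 to 18.2 and 10.3 to 29.1 CPM. *Cebpb* had 69 and 42 counts in CebpbΔM and 25 and 28 counts in WT MECs, and 16, 13, 5 and 4 counts in CebpbΔM and 13 and 15 counts in WT macrophages. It lay below the filter in macrophages and overlaps *Tmem189* on the opposite strand, so that it does not check the genotype labels.

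Of the 84 interleukin-system genes, 8 had no count in any library, namely the ligands *Il3*, *Il17a*, *Il22*, *Il1f6*, *Il1f8* and *Il1f9* and the receptor chains *Il9r* and *Il1rapl2*. A count of 0 allows a level of up to the 3 counts given above, so these genes were not detectable at this depth. A further 6 genes reached no more than 3 counts in any library. The filter of over 1 CPM in at least 2 libraries was passed by 40 genes in MECs (11 of 37 ligands and 25 of 40 receptor chains) and by 52 genes in macrophages (17 ligands and 31 receptor chains). In the joint fit of all 10 libraries 54 genes were tested, of which 18 are ligands, 32 are receptor chains, 3 are antagonists and the last is *Il4i1*. The IL-4 relative *Il13* stayed below it, with 0 counts in the 4 MEC libraries, 5, 0, 0 and 1 counts in CebpbΔM macrophages 4 to 7 and 0 and 10 counts in WT macrophages 4 and 5. Its decoy receptor *Il13ra2* was counted only in CebpbΔM macrophages 7, with 4 counts.

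Levels were first compared between genes within a cell type, over both genotypes, for which CPM was divided by the length of the gene model in kb. In MECs the ligand sum was concentrated on a few genes. The epithelial alarmin *Il33* had the highest level per length at 75.2 ± 34.6 CPM per kb (SD, n = 4), followed by *Il17b* at 34.6 ± 18.9, *Il6* at 19.4 ± 4.37, *Il11* at 10.5 ± 1.34 and *Il24* at 7.02 ± 0.612 CPM per kb. These 5 ligands made up 90.1% of the summed ligand level of MECs. *Il33* ranged from 42.2 to 124 and *Il17b* from 17.2 to 57.2 CPM per kb, so their ranges overlap and their order is not beyond the spread between libraries. *Il17b* also overlaps *Il6*, whereas *Il6* lay above *Il11*, and *Il11* above *Il24*, in every library.

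In macrophages the leading ligands were *Il1b*, the pyrogenic cytokine that is matured by caspase-1, at 34.6 ± 12.8 CPM per kb (SD, n = 6), *Il6* at 33.6 ± 18.0, *Il33* at 18.9 ± 12.2, the CSF1R ligand *Il34* at 12.9 ± 3.71 and the anti-inflammatory *Il10* at 11.8 ± 3.61 CPM per kb. These 5 made up 73.6% of the ligand sum. Neighbors in this order overlap throughout, and *Il33* was 42.5 CPM per kb in WT 4 against 10.9 to 21.3 in the other libraries.

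Of the 5 receptor chains of highest level per length, *Il13ra1*, *Il4ra* and *Il6st* were shared by both cell types. In MECs the 5 were *Il13ra1*, which binds IL-13 and pairs with *Il4ra*, at 62.5 ± 7.45 CPM per kb (SD, n = 4), *Il17rc* at 28.0 ± 4.53, *Il4ra* at 19.9 ± 2.42, *Il6st* at 18.9 ± 5.80 and *Il17re* at 17.8 ± 2.60 CPM per kb. In macrophages the 5 were *Il6st* at 56.9 ± 11.8 CPM per kb (SD, n = 6), *Il13ra1* at 35.3 ± 11, *Il4ra* at 27.4 ± 3.46, *Il10ra* at 26.6 ± 7.31 and *Il2rg* at 25.4 ± 5.12 CPM per kb. *Il13ra1* lay above all other receptor chains in each MEC library, whereas in macrophages *Il4ra*, *Il10ra* and *Il2rg* overlap. Ligand levels summed over the family were similar in both cell types, at 141 to 192 CPM per kb in MECs and 122 to 191 in macrophages, and those of receptor chains were 201 to 214 CPM per kb in MECs and 227 to 326 in macrophages. The antagonists were set apart by cell type, with a sum of 9.29 to 13.1 CPM per kb in MECs and 33.0 to 62.5 in macrophages. The heatmap of levels shows these patterns by library.

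**Figure D1:**
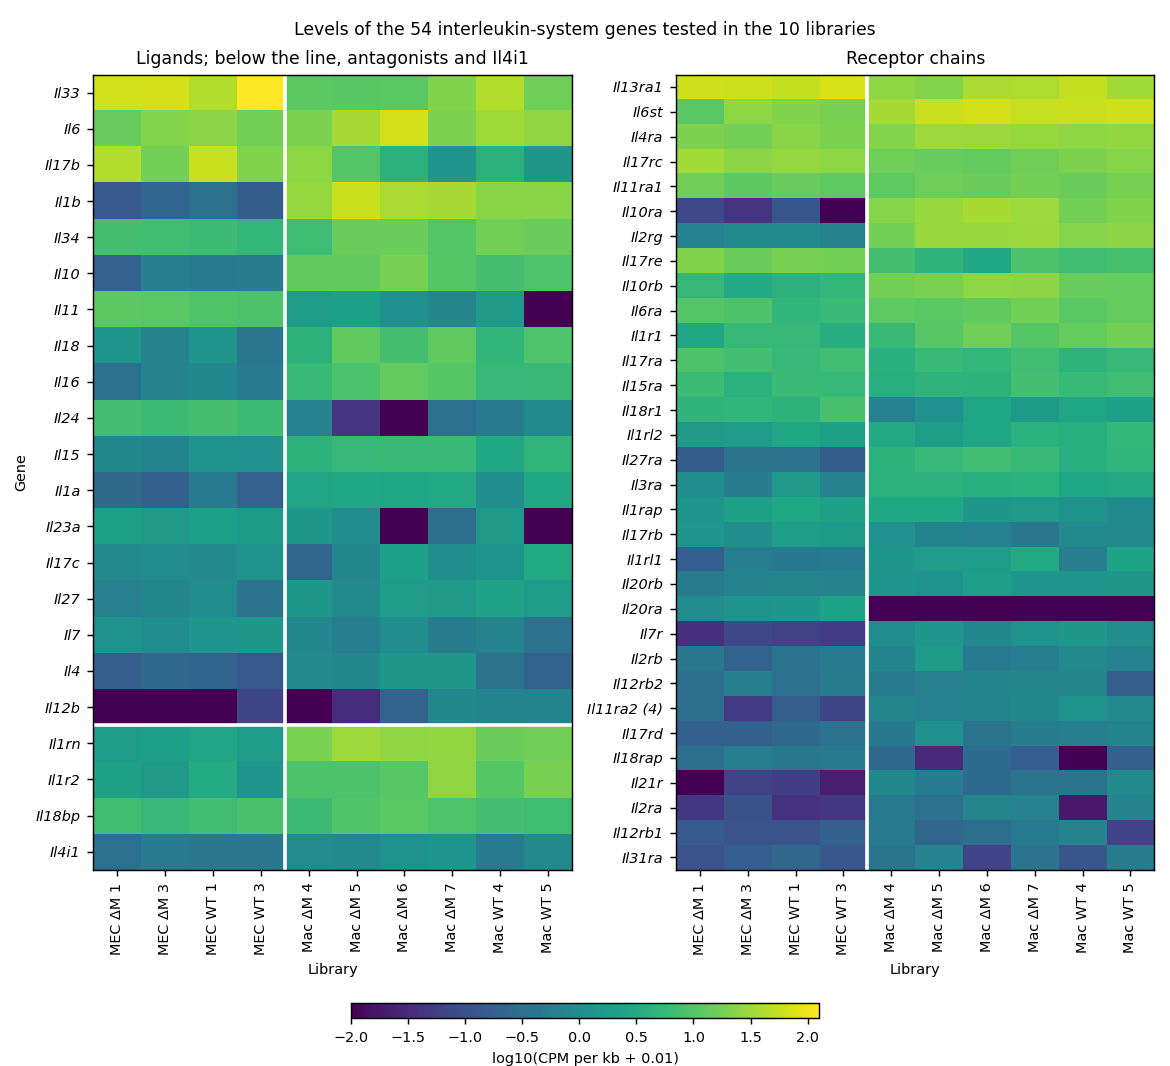
Level of each of the 54 tested genes (rows, ligands with antagonists and *Il4i1* below the line at left, receptor chains at right) in each of the 10 libraries (columns, MECs left of the white line), as log10 of CPM per kb with 0.01 added. *Il1b*, *Il10* and *Il10ra* are dark in MECs and bright in macrophages, and *Il20ra* is at 0 in all 6 macrophage libraries.

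To ask which cell type carries which part of the system, the macrophage groups were compared with the MEC groups over all 10 libraries by the quasi-likelihood (QL) F-test of edgeR, and *P*-values were adjusted after Benjamini-Hochberg over all 18323 genes tested. Cell type and experiment coincide in this series, so differences between the cell types and between the experiments cannot be told apart. Of the 54 interleukin-system genes, 31 were higher in macrophages and 11 were higher in MECs at an adjusted *P* of 0.05 or less, whereas among all genes tested 24.7% were higher in macrophages and 19.8% in MECs. The median log2 fold change was 1.20 for the 54 genes and 0.05 for all genes. Of the 54, 14 passed the filter through macrophage libraries only and 2 through MEC libraries only, so the filter favored that cell type. Among the macrophage calls these were *Il1a*, *Il1b*, *Il2ra*, *Il4*, *Il7r*, *Il10*, *Il10ra*, *Il11ra2*, *Il12b*, *Il21r* and *Il27*, and among the MEC calls *Il20ra* and *Il24*. How far this moved the counts and the median was not tested. Ligands and receptor chains leaned the same way, with 10 of 18 ligands higher in macrophages and 5 in MECs, and with 18 of 32 receptor chains higher in macrophages and 6 in MECs. Their medians were 1.17 and 1.20 on the log2 scale. In WT libraries alone 20 of the 31 genes and 5 of the 11 genes were also called, in CebpbΔM libraries alone 24 and 8, and those tested within a genotype had the same direction in each case.

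The IL-1 group was split between the cell types. *Il1b* (ENSMUSG00000027398, chromosome 2 from 129364570 to 129371139) had 0.244 and 0.388 CPM in CebpbΔM MECs and 0.607 and 0.284 CPM in WT MECs. In macrophages it had 54.7, 111, 71.9 and 68.2 CPM in CebpbΔM 4 to 7 and 45.2 and 45.5 CPM in WT 4 and 5. Every macrophage library was far above every MEC library, with a log2 fold change of 7.27 (SE 0.33, edgeR adjusted *P* = 3.67e-08). *Il1b* lies opposite the antisense gene *Il1bos*, and the library kit is not stated to mark strand. *Il1rn*, which encodes the natural antagonist of IL-1, had 9.68 to 13.8 CPM in MECs and 83.1 to 176 CPM in macrophages, a log2 fold change of 3.32 (SE 0.19, adjusted *P* = 2.30e-07 by the QL test). *Il1a*, *Il18* and the decoy *Il1r2* were also higher in macrophages, with log2 fold changes of 3.08, 3.08 and 2.73, as was the receptor *Il1r1*, with 16.5 to 35.1 CPM in MECs and 38.4 to 110 CPM in macrophages. The call of *Il1a* was lost in WT libraries alone.

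The alarmin *Il33* (chromosome 19 from 29925114 to 29960718) went the other way. It had 193 and 196 CPM in CebpbΔM MECs, 122 and 357 CPM in WT MECs, 34.0, 31.4, 32.2 and 61.4 CPM in CebpbΔM macrophages and 123 and 46.0 CPM in WT macrophages. WT macrophages 4 exceeded the lowest MEC library, so the cell types overlap, and the log2 fold change was -1.90 (SE 0.36, edgeR adjusted *P* = 0.00131). In WT libraries alone it was -1.50 and the call was lost (adjusted *P* = 0.114 by the QL test). Its receptor *Il1rl1*, known as ST2, was higher in macrophages, with 1.10 to 3.92 CPM in MECs against 3.86 to 21.6 CPM in macrophages, an overlap that rests on WT macrophages 4, and a log2 fold change of 2.06 (SE 0.47, edgeR adjusted *P* = 0.00471). The call of *Il1rl1* was also lost in WT libraries alone. The IL-18 receptor chain *Il18r1* was higher in MECs (log2 fold change -1.51), opposite to its ligand *Il18*. *Il1rap*, the chain shared by IL-1 and IL-33, had a log2 fold change of -0.47 (edgeR adjusted *P* = 0.142).

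In the IL-10 group each cell type had genes that were near the limit of detection in the other. *Il10* had 0.244 to 0.738 CPM in MECs and 10.3 to 23.8 CPM in macrophages (log2 fold change 4.60, SE 0.34, edgeR adjusted *P* = 1.35e-06). *Il10ra* (ENSMUSG00000032089, chromosome 9 from 45253837 to 45269149), the ligand-binding chain, had 6, 3, 10 and 0 counts in the MEC libraries. In macrophages it had 78.8, 102, 129 and 111 CPM in CebpbΔM 4 to 7 and 61.1 and 74.8 CPM in WT 4 and 5. Its log2 fold change of 8.75 (SE 0.46, edgeR adjusted *P* = 1.06e-07) rests on these few MEC counts. The shared chain *Il10rb*, which also serves other members of the group, was present in both cell types, at 12 to 20.4 CPM in MECs and 50.6 to 97.9 CPM in macrophages. It overlaps *Gm21970* on the same strand.

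The other side of the IL-10 group lay in MECs. *Il24*, a cytokine of the IL-20 branch that signals to epithelia, had 10.2 and 8.97 CPM in CebpbΔM MECs, 10.7 and 9.06 CPM in WT MECs and at most 1.24 CPM in any macrophage library (log2 fold change -4.08, SE 0.65, edgeR adjusted *P* = 4.60e-04). *Il20ra* (ENSMUSG00000020007, chromosome 10 from 19712570 to 19760053), a receptor chain for IL-19, IL-20 and IL-24, had 2.40 and 2.95 CPM in CebpbΔM MECs and 3.44 and 5.69 CPM in WT MECs, but 0 counts in all 6 macrophage libraries. It was at least 23.2-fold higher in MECs, when 3 counts per library are set for macrophages (edgeR adjusted *P* = 1.06e-04). Its partner *Il20rb* was instead higher in macrophages, with 2.15 to 3.07 CPM in MECs and 5.31 to 8.30 CPM in macrophages, a call that was lost in WT libraries alone. Of the 6 tested genes of this group, 4 were higher in macrophages and 2 in MECs. Of these, *Il10* and *Il10ra* passed the filter through macrophage libraries only, and *Il20ra* and *Il24* through MEC libraries only.

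The IL-17 group leaned to MECs, with 4 of 7 tested genes higher there and only *Il17rd* higher in macrophages. Of these genes only *Il17re* kept its call in either genotype alone and without any single library. The calls of *Il17rc* and *Il17rd* were lost in WT libraries alone. *Il17b*, an IL-17 cytokine that binds *Il17rb*, had 41.8 and 16.8 CPM in CebpbΔM MECs and 55.7 and 20.4 CPM in WT MECs. In macrophages it had 24.5, 9.64, 4.23 and 1.32 CPM in CebpbΔM 4 to 7 and 4.16 and 1.43 CPM in WT 4 and 5. CebpbΔM macrophages 4 overlapped the MEC range, and the log2 fold change was -2.66 (SE 0.70, edgeR adjusted *P* = 0.00940), which lost its call without WT macrophages 5 and in CebpbΔM libraries alone. The receptor chain *Il17re*, which binds the epithelial cytokine IL-17C, had 84.3 to 121 CPM in MECs and 16.4 to 53.8 CPM in macrophages (log2 fold change -1.39, SE 0.29, edgeR adjusted *P* = 0.00254), and *Il17rc* had 65.3 to 92.0 CPM in MECs and 34.5 to 61.4 CPM in macrophages (log2 fold change -0.66, SE 0.15, edgeR adjusted *P* = 0.00362). *Il17rb* was higher in MECs as well (log2 fold change -0.91), although this call was lost without any of 7 of the 10 libraries. IL-17A itself was not detected, and *Il17ra* had a log2 fold change of -0.46 (edgeR adjusted *P* = 0.0549).

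In the gp130 group *Il11* was higher in MECs, whereas *Il27* and the receptor chains *Il6st*, *Il6ra*, *Il27ra* and *Il11ra2* were higher in macrophages. The call of *Il27* was lost without any of 6 of the 10 libraries and in either genotype alone. *Il11*, a cytokine of this group, had 18.8 to 24.6 CPM in MECs and 0 to 4.29 CPM in macrophages (log2 fold change -3.28, SE 0.67, edgeR adjusted *P* = 0.00223), whereas its receptor *Il11ra1* had a log2 fold change of 0.25 (SE 0.15). In WT libraries alone, where WT macrophages 4 and 5 had 3.36 and 0 CPM, the call of *Il11* was lost. *Il6* was found in both cell types, with 34.5 to 58.5 CPM in MECs and 46.6 to 164 CPM in macrophages, and its log2 fold change of 0.74 did not pass the test (SE 0.35, edgeR adjusted *P* = 0.106). The shared chain *Il6st* and the IL-6-binding chain *Il6ra* were higher in macrophages, by 1.62 (SE 0.25) and 0.80 (SE 0.15) on the log2 scale. The calls of *Il6ra* and *Il11ra2* were lost in CebpbΔM libraries alone. *Il27ra*, the receptor chain for IL-27, had 0.528 to 1.28 CPM in MECs and 13.0 to 23.9 CPM in macrophages (log2 fold change 4.31, SE 0.33, edgeR adjusted *P* = 2.13e-06). *Il11ra1* and *Il11ra2* are near copies between which reads can be split, so their values are uncertain.

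The common gamma chain group leaned to macrophages, with 8 of 10 tested genes higher there and only *Il7* higher in MECs, although several of these calls were not stable. Among all genes tested 24.7% were higher in macrophages. Of the 8 genes, *Il2ra*, *Il4*, *Il7r* and *Il21r* passed the filter through macrophage libraries only, which favored this direction. *Il2rg* itself had 1.54 to 2.18 CPM in MECs and 41.1 to 73.3 CPM in macrophages (log2 fold change 4.98, SE 0.25, edgeR adjusted *P* = 6.86e-08). *Il7r* had 0.122 to 0.311 CPM in MECs and 3.80 to 7.12 CPM in macrophages, with a log2 fold change of 4.62 (SE 0.40), while its ligand *Il7* had 5.55 to 8.25 CPM in MECs and 1.95 to 5.64 CPM in macrophages, with a log2 fold change of -1.06 (SE 0.29). The call of *Il7* was lost without CebpbΔM MECs 1 and in either genotype alone. *Il15*, a survival factor of natural killer cells, was higher in macrophages by 2.27 on the log2 scale (SE 0.24). Its receptor *Il15ra* had a log2 fold change of 0.02 (SE 0.22). The call of *Il2rb* was lost in either genotype alone, with RLE size factors and with other filters. Its log2 fold change was 0.96 to 1.53 when single libraries were left out. *Il2ra* had 1 and 81 counts in WT macrophages 4 and 5 and overlapped between the cell types. Its log2 fold change was 0.67 to 3.72 when single libraries were left out. *Il4*, a cytokine of T cells, mast cells and basophils, had 4 to 7 counts in the MEC libraries and 5 to 33 counts in the macrophage libraries, and its log2 fold change of 1.64 (SE 0.57, edgeR adjusted *P* = 0.0356) lost its call without any of 7 of the 10 libraries. The chains *Il4ra* and *Il13ra1*, which form a receptor for IL-4 and IL-13, differed in direction, with log2 fold changes of 0.45 (SE 0.14) and -0.77 (SE 0.21). Both overlapped between the cell types and lost their call in WT libraries alone. Each kept its call in 8 of the 10 fits that left out 1 library.

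Among the remaining ligands, *Il16*, a leukocyte chemoattractant, and *Il34* were higher in macrophages, with log2 fold changes of 3.70 (SE 0.30) and 1.01 (SE 0.23). The call of *Il34* was lost in CebpbΔM libraries alone. *Il34* was present in every library, at 9.95 to 15.5 CPM in MECs and 13.2 to 32.9 CPM in macrophages, while its receptor *Csf1r* had a log2 fold change of 6.45 (SE 0.23). *Il12b*, the subunit shared by IL-12 and IL-23, had 0 counts in 3 MEC libraries and 3 counts in WT MECs 3. It had 0, 1, 7 and 26 counts in CebpbΔM macrophages 4 to 7 and 27 and 29 counts in WT macrophages 4 and 5, so a fold change cannot be given with confidence, and its call (edgeR adjusted *P* = 0.0211) was lost without any of 3 of the 4 MEC libraries. The plot of cell type fold changes shows the ligands and the receptor chains side by side.

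**Figure D2:**
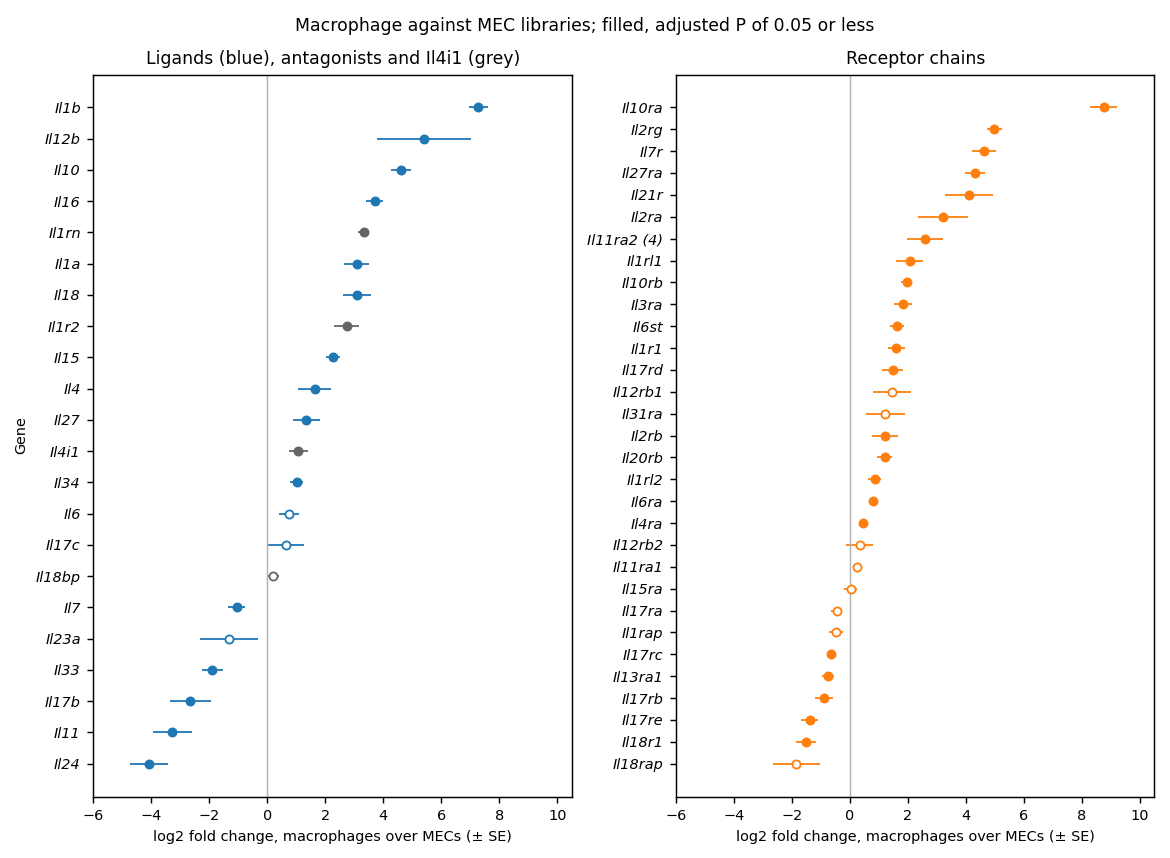
Log2 fold change of macrophages over MECs (horizontal axis, bars are SE) for each tested gene except *Il20ra*, which is at 0 in macrophages, with filled points for an adjusted *P* of 0.05 or less. *Il1b* at 7.27 and *Il10ra* at 8.75 lead on the macrophage side, and *Il24* at -4.08 and *Il11* at -3.28 on the MEC side.

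Promoters of some of these genes are printed because the factor deleted in the mice, C/EBPβ, is known to bind the letters TTNNGCAA and because the cell type contrast moved many of the genes together. Windows of 250 bases before the transcription start were taken from RefSeq (GRCm38.p6) and matched 65 of the 84 genes. The letters TTNNGCAA, read on either strand, occurred in 9.56% of all 32851 promoters of the table, in 12 of the 65 matched genes (18.5%), in 7 of the 22 genes with a promoter that were higher in macrophages (31.8%), and in 0 of the 8 that were higher in MECs. The letters GAGGAA, the core of the site of the myeloid factor PU.1 and its ETS relatives, occurred in 23.3% of all promoters, in 21 of the 65 (32.3%), in 5 of the 22 (22.7%) and in 1 of the 8 (12.5%). *Il11ra2* of chromosome 4, also higher in macrophages, is not among the 22, and its window holds 0 matches of TTNNGCAA and 1 of GAGGAA. The letters of the motifs cannot overlap each other. These counts are descriptions of letters without a test, and a match is not a binding site. Shown 5′ to 3′ on the gene's strand are *Il6* (chr5:30012864-30013113, plus strand), the classical C/EBPβ target among the genes, *Il1r1* (chr1:40224830-40225079, plus strand) and *Il7r* (chr15:9529877-9530126, minus strand), which were higher in macrophages and hold a match, *Il1b* (chr2:129371140-129371389, minus strand), which was the macrophage ligand of smallest *P* and holds none in this window, and *Il20ra* (chr10:19712337-19712586, plus strand), the receptor chain counted only in MECs. Capitals mark matches of TTNNGCAA, which begin at position -128 relative to the start in *Il6*, -133 in *Il1r1* and -174 in *Il7r*.
Il6: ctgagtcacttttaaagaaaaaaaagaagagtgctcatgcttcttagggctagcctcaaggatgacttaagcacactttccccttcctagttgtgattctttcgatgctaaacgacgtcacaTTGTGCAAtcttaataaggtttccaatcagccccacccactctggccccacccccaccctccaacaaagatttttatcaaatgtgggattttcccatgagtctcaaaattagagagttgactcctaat
Il1r1: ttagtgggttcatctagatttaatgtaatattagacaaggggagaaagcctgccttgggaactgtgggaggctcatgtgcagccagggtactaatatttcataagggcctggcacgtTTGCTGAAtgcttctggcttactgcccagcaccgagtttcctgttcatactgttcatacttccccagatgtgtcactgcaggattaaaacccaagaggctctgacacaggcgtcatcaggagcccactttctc
Il7r: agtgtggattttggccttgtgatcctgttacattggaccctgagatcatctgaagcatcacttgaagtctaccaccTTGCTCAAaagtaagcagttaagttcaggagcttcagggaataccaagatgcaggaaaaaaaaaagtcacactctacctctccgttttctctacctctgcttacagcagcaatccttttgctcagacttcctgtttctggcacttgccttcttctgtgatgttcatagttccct
Il1b: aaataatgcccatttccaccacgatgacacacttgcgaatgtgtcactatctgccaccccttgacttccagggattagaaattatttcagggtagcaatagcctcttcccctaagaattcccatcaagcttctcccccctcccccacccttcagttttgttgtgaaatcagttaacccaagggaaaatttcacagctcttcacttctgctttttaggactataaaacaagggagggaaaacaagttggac
Il20ra: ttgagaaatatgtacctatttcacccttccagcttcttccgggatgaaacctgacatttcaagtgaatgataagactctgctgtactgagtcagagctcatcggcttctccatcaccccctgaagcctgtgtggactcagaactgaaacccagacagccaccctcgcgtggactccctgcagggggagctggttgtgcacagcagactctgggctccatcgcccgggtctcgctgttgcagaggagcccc

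The genes downstream of the receptors were read from lists of pathway genes. All 7 tested genes of inflammasome and IL-1 processing were higher in macrophages by the QL test, among them *Casp1*, the protease that matures IL-1β and IL-18, with a log2 fold change of 2.49 (SE 0.27), and its sensor *Nlrp3*. Of this list *Nlrp3*, *Nlrc4* and *Aim2* passed the filter through macrophage libraries only, which favored that direction. Of 10 tested Janus kinases and STATs, 8 were higher in macrophages, and *Stat3* was higher in MECs at -0.47 (SE 0.13). Of 12 feedback inhibitors 6 were higher in macrophages and *Socs5* was higher in MECs. Of 13 adaptors of IL-1 and IL-17 receptors only *Irak3*, an inhibitory kinase of macrophages, was higher in macrophages, and *Traf3ip2*, the adaptor of IL-17 receptors known as Act1, and *Tollip* were higher in MECs. *Myd88*, the adaptor of IL-1 receptors, had a log2 fold change of 0.08 (SE 0.16). Among 11 partner chains and ligands outside the symbol rule, 9 were higher in macrophages, including *Ebi3*, the partner of IL-27, at 6.29 (SE 0.31), and the gp130 ligand *Lif* and the oncostatin M receptor *Osmr* were higher in MECs. Here *Ebi3*, *Osm* and *Cd4* passed the filter through macrophage libraries only.

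CebpbΔM and WT were compared next within each cell type, to ask whether loss of *Cebpb* in macrophages goes with a change of interleukin signaling in macrophages or in the neighboring epithelium. In MECs the QL test called 0 of the 40 genes tested, where 0.0510% of all 15698 genes tested were called. The median log2 fold change was -0.13, against -0.01 over all genes, with 12 genes higher and 28 lower in CebpbΔM. An unadjusted *P* under 0.05 was found for 1 of the 40 genes, against 5.42% of all genes, and the likelihood ratio test and DESeq2 likewise gave 0 adjusted calls. In 12 of the 40 genes the genotypes did not overlap, against 28.2% of all genes, and most of the 12 lay below WT in CebpbΔM. With 2 libraries against 2, the smallest *P* of an exact permutation test is 0.333.

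That gene was *Il6ra* (ENSMUSG00000027947, chromosome 3 from 89864059 to 89913196), the chain with which a cell recognises IL-6. It had 86.4 and 79.0 CPM in CebpbΔM MECs 1 and 3 and 43.7 and 52.6 CPM in WT MECs 1 and 3. Both CebpbΔM libraries lay above both WT libraries, and the log2 fold change was 0.80 (SE 0.21, QL test unadjusted *P* = 0.00306, adjusted *P* = 0.269). Over the alternatives its adjusted *P* was 0.0552 to 1, without a call, and its log2 fold change 0.66 to 0.97. *Il6* itself had 34.5 and 52.7 CPM in CebpbΔM and 58.5 and 42.9 CPM in WT MECs, with overlap, and the shared chain *Il6st* had a log2 fold change of -0.10 (SE 0.32). The summed macrophage markers in these libraries were 36.3 and 41.6 CPM in CebpbΔM and 34.1 and 28.4 CPM in WT, with *Csf1r* at a log2 fold change of 0.97 (SE 0.26, edgeR adjusted *P* = 0.276), and their part in the values of *Il6ra* was not tested.

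The other genes of MECs had smaller differences than *Il6ra*. *Il15* had 1.79 and 1.55 CPM in CebpbΔM against 2.75 and 2.68 CPM in WT, without overlap (log2 fold change -0.68, SE 0.40), and *Il34* had 15.5 and 14.3 against 12.9 and 9.95 CPM (0.40, SE 0.27). *Il11* had 24.6 and 23.7 against 20.1 and 18.8 CPM (0.34, SE 0.24). The adjusted *P* of each of these was 1 by the QL test. *Il20ra*, *Il17rd*, *Il17rb*, *Il1rl2*, *Il20rb* and *Il7* also lay below WT in CebpbΔM MECs without overlap, and *Il17ra* lay above. When single libraries were left out, the log2 fold change of *Il20ra* was -1.07 to -0.31 and that of *Il17rd* -0.92 to -0.25. The leading ligands *Il33* and *Il17b* overlapped between genotypes, as *Il33* had 122 and 357 CPM in WT alone and *Il17b* had 41.8 and 16.8 CPM in CebpbΔM alone. The IL-13 and IL-4 receptor chains *Il13ra1* and *Il4ra* had log2 fold changes of 0.05 (SE 0.22) and -0.20 (SE 0.20), the latter without overlap.

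In macrophages the QL test called 0 of the 52 genes tested, and 0% of all 17772 genes were called. An unadjusted *P* under 0.05 was found for 9 of the 52 genes, against 8.63% of all genes, and again the likelihood ratio test and DESeq2 gave 0 adjusted calls among the 52. In 14 of the 52 genes the genotypes did not overlap, against 18.5% of all genes, and 10 of the 14 lay above WT in CebpbΔM. The median log2 fold change was 0.10, against 0.00 over all genes. For ligands it was 0.47, with 11 of 17 higher, and for receptor chains 0.06, with 16 of 31 higher. An exact permutation test of 4 libraries against 2 cannot give a *P* under 0.0667, so no gene could pass a threshold of 0.05 by that test.

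Marker sums of the macrophage libraries differed by genotype. The summed macrophage markers were 5481, 5948, 7781 and 7160 CPM in CebpbΔM 4 to 7 and 3323 and 4883 CPM in WT 4 and 5, without overlap. Of this list *C1qa*, *C1qb*, *Csf1r*, *Cd68* and *Adgre1* were higher in every CebpbΔM library, whereas *Mertk*, *Fcgr1* and *Mrc1* overlapped. Whether the sum reflects more macrophages or more of these transcripts per cell cannot be told apart. The summed epithelial markers were 6825, 5398, 5136 and 6204 CPM in CebpbΔM and 9139 and 9263 CPM in WT. This sum too did not overlap, in the other direction. Of its genes *Krt8*, *Krt18* and *Krt19* were lower in every CebpbΔM library, whereas *Epcam*, *Cdh1*, *Krt5*, *Krt14* and *Csn2* overlapped between genotypes. *Krt14* had 694, 366, 310 and 41.5 CPM in CebpbΔM 4 to 7 and 183 and 56.6 CPM in WT. Dendritic cell markers summed to 93.6 to 148 CPM in CebpbΔM and 58.3 to 77.2 CPM in WT, and B cell markers to 9.39 to 16.3 and 6.62 to 7.72 CPM. The dendritic cell sum differed mostly by *Siglech*, with 56.6 to 94.4 CPM in CebpbΔM and 16.7 and 27.5 CPM in WT. *Ccr7* also did not overlap, whereas *Zbtb46*, *Flt3*, *Clec9a* and *Xcr1* did. Among B cell markers *Fcmr* had 1.41 to 9.01 CPM in CebpbΔM and 0 CPM in WT, and the others overlapped. The part of the cells of these marker lists in the values that follow was not tested.

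Of the IL-1 group, *Il1rn*, the IL-1 antagonist (ENSMUSG00000026981, chromosome 2 from 24336853 to 24351494), had 104, 176, 148 and 149 CPM in CebpbΔM 4 to 7 and 83.1 and 89.5 CPM in WT 4 and 5. All 4 CebpbΔM libraries lay above both WT libraries (log2 fold change 0.71, SE 0.22, edgeR adjusted *P* = 0.508). *Il1b*, with the values given above, also lay higher in all 4 CebpbΔM libraries, by 0.73 on the log2 scale (SE 0.28, edgeR adjusted *P* = 0.537). The receptor chain *Il1rap* had 31.2, 31.2, 17.6 and 18.6 CPM in CebpbΔM and 13.9 and 9.95 CPM in WT (1.03, SE 0.33, edgeR adjusted *P* = 0.517). The signaling receptor *Il1r1* had 38.4, 68.6, 104 and 67.4 CPM in CebpbΔM against 84.9 and 110 CPM in WT, with overlap and a log2 fold change of -0.51 (SE 0.34), and the decoy *Il1r2* had a log2 fold change of -0.09 (SE 0.48).

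Of the IL-10 group, the ligand-binding chain *Il10ra* had 105 ± 21.0 CPM (SD, n = 4) in CebpbΔM and 68.0 ± 9.65 CPM (SD, n = 2) in WT (log2 fold change 0.61, SE 0.22), and the shared chain *Il10rb* had 82.2 ± 16.4 and 52.2 ± 2.31 CPM (0.63, SE 0.22). *Il10* itself had 16.5, 16.4, 23.8 and 13.5 CPM in CebpbΔM and 10.3 and 12.4 CPM in WT (0.60, SE 0.29). None of the 3 overlapped between genotypes, and their adjusted *P* lay between 0.521 and 0.600 by the QL test. *Il16* had 47.5, 67.0, 103 and 83.4 CPM in CebpbΔM and 43.2 and 46.6 CPM in WT (0.72, SE 0.29).

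*Il4* had 20, 20, 33 and 30 counts in CebpbΔM and 9 and 5 counts in WT, so that its log2 fold change of 1.97 (SE 0.80, edgeR adjusted *P* = 0.555) rests on few counts. Markers of mast cells and basophils, which make IL-4, summed to 37.3 to 82.1 CPM in CebpbΔM and 52.9 to 68.9 CPM in WT, and T cell markers to 10.6 to 15.9 and 8.83 to 10.3 CPM. Their part in the values of *Il4* was not tested. On the other side, *Il17rc* had 42.4, 37.7, 34.5 and 43.9 CPM in CebpbΔM and 51.5 and 61.4 CPM in WT, without overlap (log2 fold change -0.53, SE 0.18, edgeR adjusted *P* = 0.521). *Il33* had the values given above, with overlap, and its log2 fold change of -1.11 (SE 0.40, edgeR adjusted *P* = 0.523) rested on WT 4, since without that library it was -0.24.

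A scaling to the macrophage marker sum was added after these values were seen. When library sizes were set by the macrophage marker sum in place of all genes, the median log2 fold change moved to -0.68 over all genes and to -0.57 over the 52 genes, with 0 of them called. The scaling shifts all genes together and so gives levels per macrophage marker. On this scale *Il1b* was at 0.05, *Il1rn* at 0.03, *Il10ra* and *Il10* at -0.08, *Il10rb* at -0.10, *Il16* at -0.01, *Il1rap* at 0.35, *Il4* at 1.19, *Il17rc* at -1.19 and *Il33* at -1.94, and *Il10ra*, *Il10*, *Il10rb* and *Il16* had the opposite sign to that given above.

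Other genes of textbook interest in macrophages had an unadjusted *P* over 0.05. *Il6* had 46.6, 87.3, 164 and 48.3 CPM in CebpbΔM and 79.0 and 64.4 CPM in WT, so CebpbΔM libraries lay on both sides of WT (log2 fold change 0.25, SE 0.49). *Il12b* had a log2 fold change of -1.49 (SE 1.40), *Il18* of 0.35 (SE 0.48), *Il1a* of 0.49 (SE 0.45) and *Il34* of -0.48 (SE 0.31), the last without overlap. Among receptor chains *Il4ra*, *Il6ra* and *Il2rg* lay within 0.16 of 0 on the log2 scale. The plot of macrophage values sets the 9 genes with an unadjusted *P* under 0.05 beside the marker sums.

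**Figure D3:**
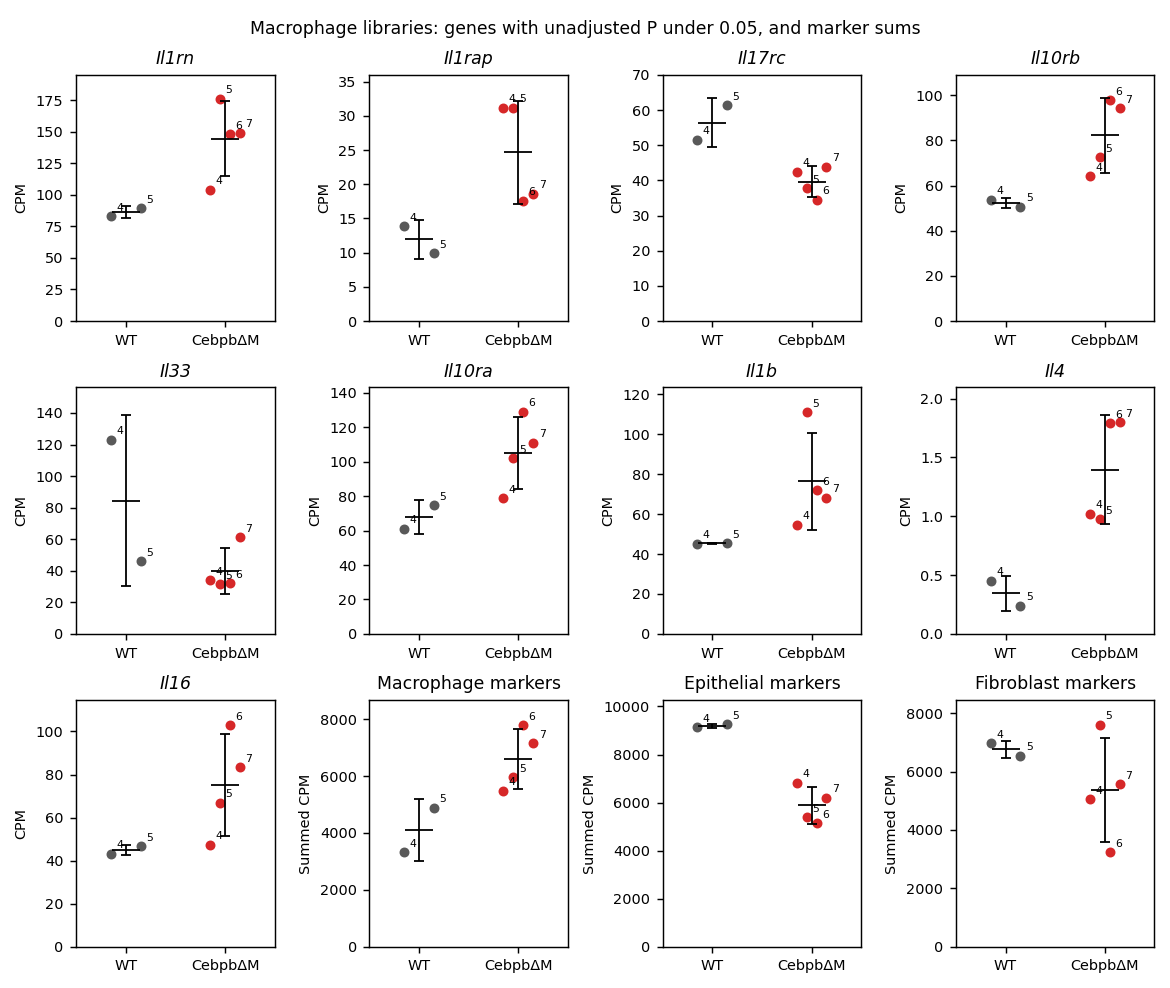
CPM in each macrophage library (points, numbered by replicate; bars are mean and SD) for the 9 genes with an unadjusted *P* under 0.05, and the summed CPM of macrophage, epithelial and fibroblast markers, each from 0 on a linear axis. In 8 of the 9 genes the genotypes do not overlap, and neither do they for the macrophage and epithelial marker sums.

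The lists of pathway genes gave 0 calls by genotype in either cell type. In macrophages 6 of 7 tested genes of inflammasome and IL-1 processing had a positive log2 fold change (median 0.38, against 0.00 over all genes). Among them *Casp4* was at 0.91 (SE 0.32, edgeR adjusted *P* = 0.521). The scaling to the macrophage marker sum lowers all genes, with a median of -0.68 over all genes. Whether these 6 genes stay positive on that scale was not tested. In macrophages the smallest *P* of the lists belonged to *Stat5a* at -1.07 (SE 0.20, edgeR adjusted *P* = 0.452). *Stat5a* is the STAT of prolactin signaling in mammary epithelium. In MECs all 10 tested Janus kinases and STATs had negative log2 fold changes (median -0.22, against -0.01 over all genes).

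An interaction term in the fit of the 10 libraries then compared the genotype difference of macrophages with that of MECs. It passed the QL test in 0 of the 54 genes, and in 0% of all 18323 genes. An unadjusted *P* under 0.05 was found for 5 of the 54, against 951 of all 18323 genes, and the likelihood ratio test and DESeq2 also gave 0 adjusted calls among the 54. These were *Il1rap* (difference of log2 fold changes 1.57, SE 0.50), *Il15* (1.22, SE 0.45), *Il1rn* (0.90, SE 0.34), *Il6ra* (-0.68, SE 0.29) and *Il17rc* (-0.66, SE 0.29). The *Il1rap* difference had a QL test adjusted *P* of 0.923. Of the 38 genes tested in both cell types, 7 were higher and 10 were lower in CebpbΔM in both, 16 were higher in macrophages and lower in MECs, and 5 the reverse, as the plot of genotype differences shows. The same split was not counted over all genes. Many signs were unstable, as 14 of 40 genes in MECs and 33 of 52 in macrophages kept theirs without any single library. Scaled to the macrophage marker sum, *Il10rb*, *Il15*, *Il16*, *Il4ra*, *Il6* and *Il7* of the 16 turned negative in macrophages. *Il1rap* and *Il1rn* of the 16 stayed positive on that scale.

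**Figure D4:**
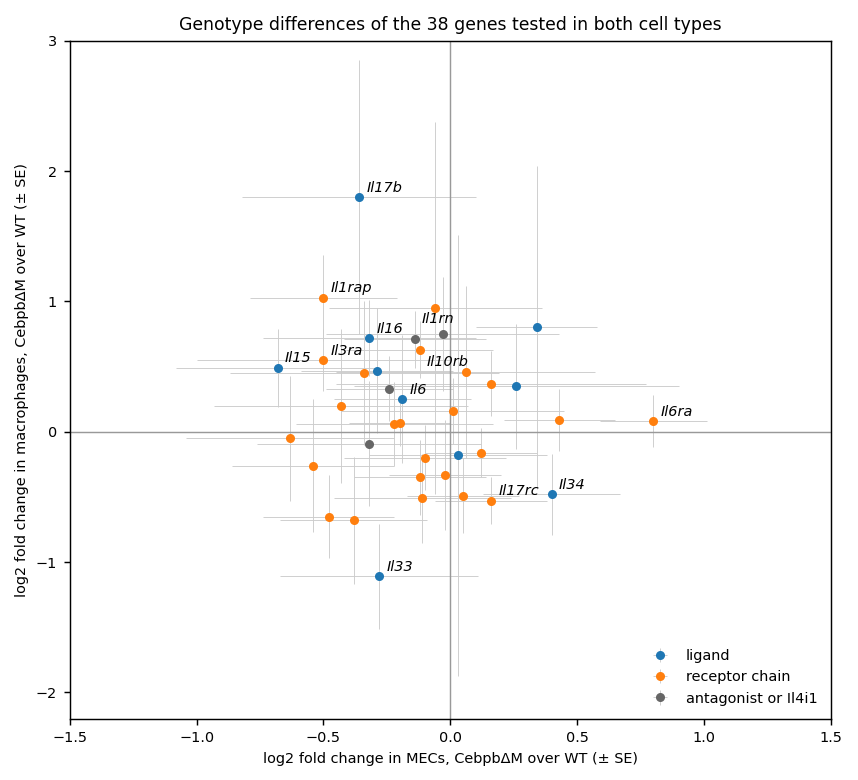
Log2 fold change of CebpbΔM over WT in MECs (horizontal) and in macrophages (vertical) for the 38 genes tested in both, with SE bars, ligands in blue, receptor chains in orange and antagonists or *Il4i1* in grey. *Il6ra* stands to the right at 0.80 in MECs with 0.08 in macrophages, and *Il1rap* lies at -0.50 and 1.03, and none passed the adjusted threshold in either comparison.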

How the data were processed

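The deposited values were raw read counts per gene, which the authors made by trimming with Trimmomatic, alignment to GRCm38 with HISAT2 and counting with featureCounts 1.6.2 against Ensembl release 100, with a strand setting although the library kit is not stated to mark strand. Reads of overlapping and antisense genes can therefore not be told apart. The counting command of the MEC table names 6 inputs, of which 4 are columns of the table and the others were not analysed here. Symbols and biotypes were taken from GENCODE M21, which gave a symbol to 55227 of 55487 gene IDs. The members and lists were chosen with earlier results of these data known.

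Counts of genes of at least 300 nt with over 1 CPM in at least 2 libraries were scaled by TMM and tested with edgeR 4.0.16 (R 4.3.3; quasi-likelihood F-test, two-sided, Benjamini-Hochberg adjustment over all genes tested, threshold 0.05), genotype within each cell type and cell type over all 10 libraries, where genotype and interaction terms were included. The study's methods name the likelihood ratio test, which was run as an alternative, as was DESeq2 1.42.0. Other alternatives were size factors, filters, a replicate block, single genotypes, all libraries in one fit and leaving out each library. Levels are TMM-scaled CPM over the 10 libraries, divided by gene model length where genes are compared. Scripts were tested on simulated data.

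Named genes were those past the adjusted threshold by genotype, those with an unadjusted *P* under 0.05 and no overlap, the 5 ligands and 5 receptor chains of highest level per length, the 8 genes of smallest *P* in each direction by cell type, and a set list of 25 genes. Receptor partners of these genes, such as *Il1rl1*, *Il20rb*, *Il17ra*, *Il17rb* and *Il11ra1*, and single exceptions of a family, such as *Il17rd* and *Il27*, were named after their values were seen. So were the single genes of pathway lists and the other genes of MECs without overlap between genotypes. In the MECs samples with the same replicate number deviated together with a correlation of 0.105, and in macrophages with 0.125 and -0.0853. The shared numbers were not treated as pairs. Replicate libraries differed by more than sampling noise, with chi-square values per gene of 34.9 to 69.7.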

Additional observations from a re-analysis of the deposited data

Results flagged for a closer look

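Among the 52 tested genes, 4 had 1 CebpbΔM macrophage library that stood apart from the other 3 by Dixon's criterion for 4 values, which chance exceeds in about 5% of groups. *Il1r2* had 50.0 CPM in CebpbΔM 7 and 16.9 to 21.1 CPM in the others, and *Il33* had 61.4 CPM in CebpbΔM 7 and 31.4 to 34.0 CPM in the others. *Il2rb* had 7.35 CPM in CebpbΔM 5 and 2.17 to 3.01 CPM in the others. *Il2rg* had 41.1 CPM in CebpbΔM 4 and 68.9 to 73.3 CPM in the others.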

How the results depend on the processing

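Depth limits *Il4*, *Il12b* and *Il10ra* in MECs, which rest on few counts, and 2 to 4 libraries a group limit the genotype comparisons. In MECs 0 interleukin-system genes were called under every alternative run (unadjusted *P* under 0.05: 1 gene by the QL test, the likelihood ratio test and DESeq2, and 2 to 5 without single libraries), and likewise 0 in the interaction (5 by the QL and likelihood ratio tests, 6 by DESeq2). In macrophages the exception to 0 (9 genes by the QL and likelihood ratio tests, 11 by DESeq2, 6 to 11 without single libraries) was the replicate block with the likelihood ratio test, which called 6 genes, *Il1r1* (-0.93), *Il13ra1* (-0.85), *Il12b* (-5.57), *Il1rap* (1.38), *Il17b* (2.62) and *Il33* (-1.23), and the cause was not tested. The replicate block with the QL test called 0 in either cell type and in the interaction, and as the numbers mark no stated pairing it is given only here. It turned *Il2rg* to -0.08, *Il4ra* to -0.02, *Il6* to -0.18 and *Il6ra* to -0.08 in macrophages, with the same values by the likelihood ratio test. No block was possible by cell type, since MECs and macrophages share no number.

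Over all genes the calls in MECs were 8, against 179 by the likelihood ratio test, 161 by DESeq2, 38 without the filter, 205 with the block, 243 with the block and the likelihood ratio test, 0 in one fit of 10 libraries and 2 (without WT 3) to 337 (without CebpbΔM 3) when single libraries were left out. In macrophages they were 0, against 138, 201, 12 with the block and 455 with both, and in the interaction 0, against 53 and 27. By cell type they were 8163, against 4228 in WT libraries alone.

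Directions turned as follows (log2 fold change). With all 10 libraries in one fit *Il2rg* in MECs was -0.02. With macrophage replicates 4 and 5 only *Il2rg* was -0.02, *Il6* -0.11 and *Il6ra* -0.08. With library sizes from the macrophage marker sum, chosen after seeing the data, macrophage values were -0.08 for *Il10* and *Il10ra*, -0.10 for *Il10rb*, -0.14 for *Il15*, -0.01 for *Il16*, -0.28 for *Il18*, -0.07 for *Il1a*, -0.55 for *Il2rg*, -0.63 for *Il4ra*, -0.53 for *Il6*, -0.59 for *Il6ra* and -0.30 for *Il7*. This scaling lowers all genes. By cell type *Il15ra* was -0.02 with DESeq2 or RLE size factors, -0.00 with other filters and -0.07 in CebpbΔM libraries alone. Cell type calls were 20 and 6 in WT libraries alone, where fewer libraries enter, and 25 to 32 and 9 to 11 without single libraries.

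Whichever single library was left out, 14 of the 40 genes kept their sign in MECs and 33 of the 52 in macrophages. Among the genes of the set list the sign changed in MECs for *Il1r1* (-0.79 to 0.35), *Il6* (-0.56 to 0.10), *Il6st* (-0.83 to 0.38), *Il10rb* (-0.52 to 0.19), *Il15ra* (-0.44 to 0.14), *Il2rg* (-0.29 to 0.25), *Il13ra1* (-0.16 to 0.31), *Il1r2* (-0.80 to 0.43), *Il1rn* (-0.33 to 0.11), *Il18* (-0.35 to 0.68) and *Il33* (-0.86 to 0.72). In macrophages it changed for *Il1r2* (-0.61 to 0.40), *Il6* (-0.26 to 0.45), *Il6ra* (-0.06 to 0.23), *Il18* (-0.04 to 0.88), *Il1a* (-0.07 to 1.40) and *Il7r* (-0.49 to 0.03), and by cell type for *Il15ra* (-0.13 to 0.19), with *Il12rb2* (-0.36 to 0.72) the other among all 54 genes. All 9 macrophage genes with an unadjusted *P* under 0.05 kept their direction without any single library.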
